A study of Canis lupus familiaris with 6 samples.

Results

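MDCK cells are an epithelial line from dog kidney that grows as polarised sheets, and here the cells sampled 30 days after transforming growth factor beta (TGFb) had been removed are set against cells that had received TGFb for 30 days. The comparison takes 3 of the 6 arrays of the series, chosen by their labels: the single withdrawal array and both TGFb arrays. Per the labels TGFb was given at 5 ng/ml with subculture every few days, in serum-containing medium that all groups shared. Per the labels the withdrawn cells were epithelial, and those under TGFb mesenchymal. A pair of arrays from never-treated cells, also described as epithelial, is shown beside them, and a single 5-AZA array of TGFb-treated cells took no part in any comparison here. The labels do not say whether the withdrawn cells descended from the same cultures as the TGFb arrays, nor whether the arrays of a pair came from separate cultures. Every p-value therefore measures the spread between these arrays, which may be technical. The TGFb cells were sampled after 30 days of treatment. For the withdrawn cells 30 days of TGFb are recorded as well, with sampling 30 days after its removal. The recorded schedule is thus longer for the withdrawn cells. Total time in culture is not given, so that removal of TGFb and any difference in culture time cannot be told apart.

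TGFb binds paired type I and type II receptor kinases that phosphorylate SMAD2 and SMAD3, which enter the nucleus with SMAD4 and act on matrix and feedback genes. In many epithelia prolonged TGFb leads to an epithelial-mesenchymal transition (EMT), in which transcriptional repressors of the ZEB and SNAI families silence E-cadherin and other junction genes while matrix and contractile genes rise. The reverse passage is called a mesenchymal-epithelial transition, and withdrawal of the ligand is a standard way to ask how far a cell line can return.

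The 5 marker genes came with the description of the comparison, so their values describe it and do not check the labels. On the log2 scale of the deposited signals, CDH1, which encodes E-cadherin, the adhesion receptor of adherens junctions, read 11.34 on the withdrawal array, against 6.25 and 7.24 on the TGFb arrays and 11.64 and 11.43 on the untreated arrays. Withdrawal stood far above both TGFb arrays and 0.08 below the lower untreated one. FGFBP1, which encodes a secreted carrier of fibroblast growth factors, read 11.61 after withdrawal, against 3.14 and 3.59 under TGFb and 9.82 and 9.60 in untreated cells. It was the largest positive difference of any named gene, and the withdrawal value also exceeded both untreated values. KRT19, a keratin of simple epithelia, read 10.34 after withdrawal, against 4.36 and 5.23 under TGFb and 10.33 and 10.17 in untreated cells. ZEB1, a repressor of CDH1, read 3.39 after withdrawal, against 8.79 and 8.5 under TGFb and 4.21 and 3.08 in untreated cells. KERA, which encodes the proteoglycan keratocan, read 3.96 after withdrawal, against 11.06 and 10.71 under TGFb and 3.37 and 3.54 in untreated cells. All 5 markers separated the withdrawal array from both TGFb arrays, with FGFBP1 and KERA the largest rise and the largest fall of any named gene.

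In the fit, FGFBP1 rose by 8.25 ± 0.26 (log2 difference, withdrawal minus TGFb, ± SE, adjusted p = 0.00559), a ratio of 304. KRT19 rose by 5.54 ± 0.38 (adjusted p = 0.0188) and CDH1 by 4.60 ± 0.43 (adjusted p = 0.0292). KERA fell by 6.93 ± 0.23 (adjusted p = 0.00559) and ZEB1 fell by 5.26 ± 0.48 (adjusted p = 0.0285). In total RNA from a culture, fewer cells of a kind and less RNA per cell cannot be told apart. Without either untreated array the calls on CDH1 (adjusted p = 0.0744) and KRT19 (adjusted p = 0.0551) were lost while the other 3 held, and without either TGFb array all 5 were lost (adjusted p from 0.0722 to 0.164).

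**Figure D1:**
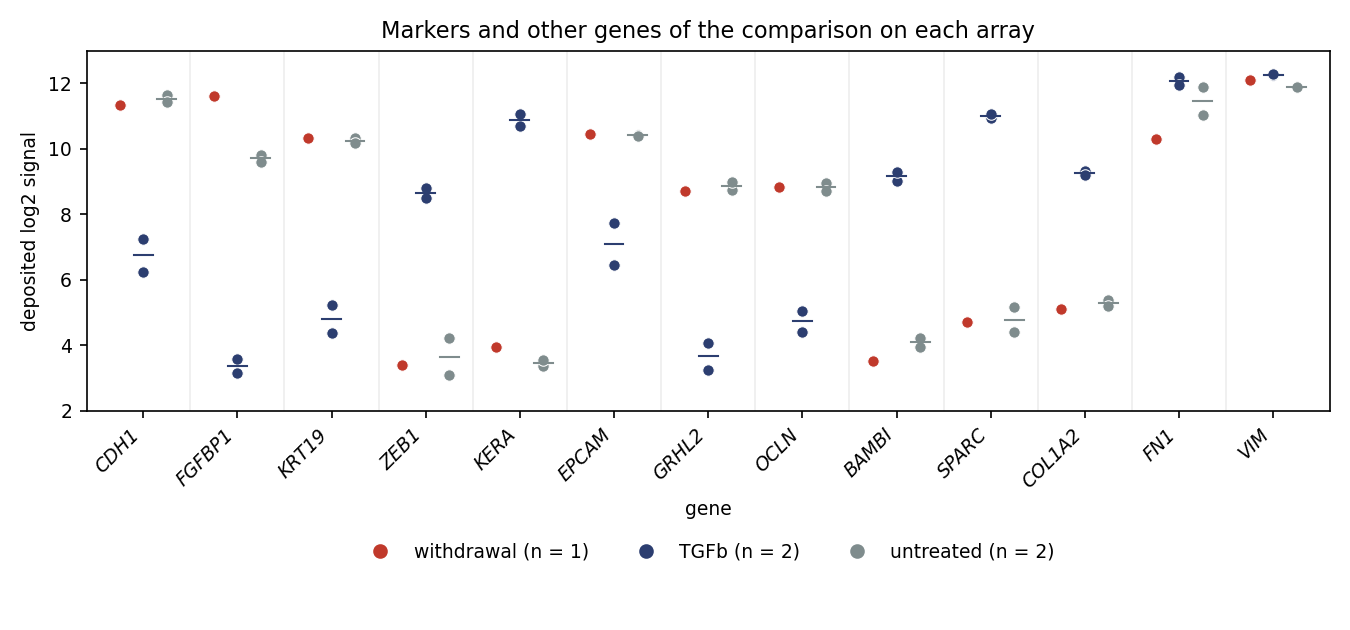
Deposited log2 signal (vertical axis) of the 5 markers and 8 other genes of the comparison (horizontal axis) on the withdrawal array (red, n = 1), the TGFb arrays (blue, n = 2) and the untreated arrays (grey, n = 2), with a bar at each pair's mean. The withdrawal point sits with the untreated points for CDH1, KRT19, EPCAM, GRHL2 and OCLN, above them for FGFBP1 (11.61 against 9.82 and 9.60), and below both pairs for FN1 (10.29).

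Over all arrays the medians lay between 4.97 and 5.01, and the median absolute log2 difference was 0.225 between withdrawal and the TGFb mean, 0.181 between the TGFb arrays and 0.204 between the untreated arrays. The TGFb arrays lay at least 2-fold apart for 2.64% of probe sets. Among 15947 named genes, 99 rose (0.621%) and 106 fell (0.665%) at an adjusted p under 0.05, or 1.29% in either direction. All 205 lay beyond both TGFb arrays by at least 2-fold, and the smallest called difference was 1.47 on the log2 scale in each direction. Over all 32293 probe sets 119 rose (0.369%) and 152 fell (0.471%), or 0.839% in either direction. A count of size alone, the withdrawal value lying at least 2-fold outside both TGFb arrays, took in 327 named genes on the higher side (2.05%) and 467 on the lower side (2.93%), or 4.98% in all. Over all probe sets the same count took in 511 (1.58%) and 787 (2.44%), or 4.02% in all. Because the withdrawal group has 1 array, the spread came from the untreated and TGFb pairs, and the lone array was assumed to vary like them. No call was left without either TGFb array (adjusted p of the 205 genes from 0.0722 to 0.24), and 61 of the 205 held without either untreated array. The direction of all 205 stayed the same in each of these fits. It could not have reversed there, since all 205 lay beyond both TGFb arrays. With only named genes tested 907 were called, all 205 among them, so that a missed threshold below depends on the setting.

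**Figure D2:**
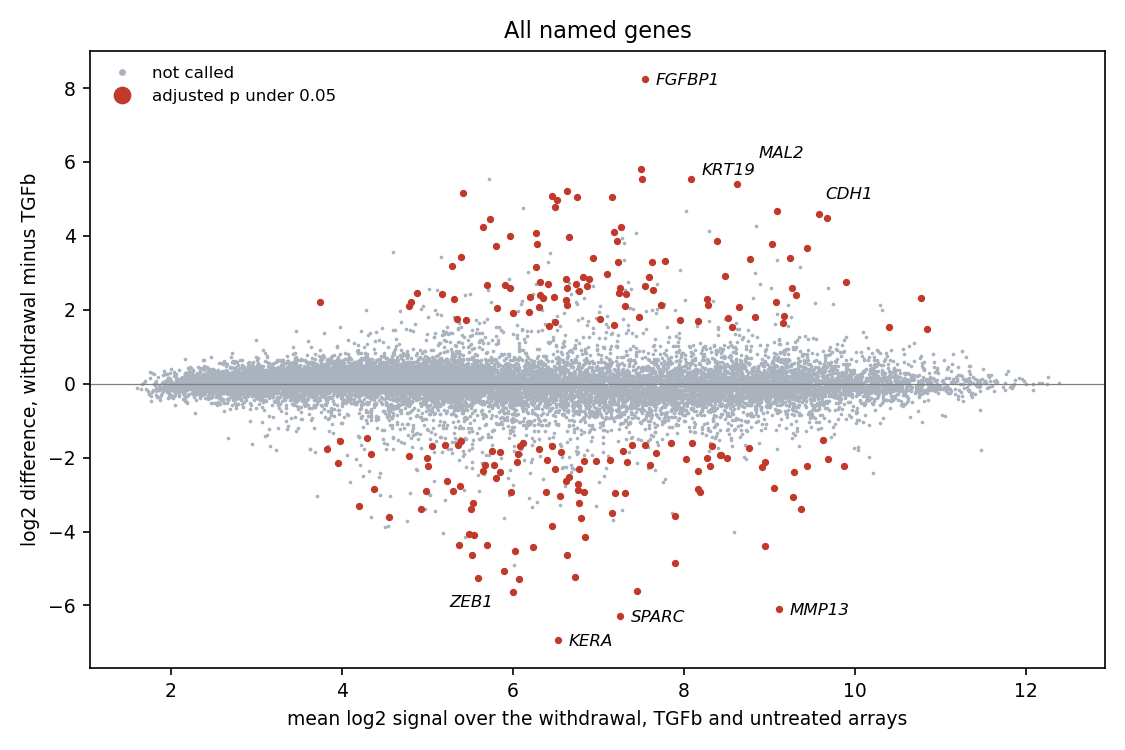
Log2 difference, withdrawal minus TGFb (vertical axis), against the mean log2 signal over the withdrawal, TGFb and untreated arrays (horizontal axis) for 15947 named genes, with the 205 called genes in red. FGFBP1 at 8.25 and KERA at −6.93 mark the ends of the range, and MAL2, though 5.77 higher, is not called.

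Tight junctions seal the space between epithelial cells, and their strand proteins and scaffolds made up the list with the highest share of called genes. Of 24 measured tight junction and polarity genes 6 rose (25%), none fell and 18 did not pass. Of all named genes 0.621% rose and 0.665% fell. The list's median difference was 0.60, beside 0.03 over all named genes. Members of all lists were chosen with earlier results of these data known, so the shares called describe the lists and test nothing. OCLN, which encodes the strand protein occludin, read 8.83 after withdrawal, against 4.41 and 5.04 under TGFb and 8.95 and 8.71 in untreated cells (difference 4.11 ± 0.31, adjusted p = 0.022). The claudin gene CLDN1 read 11.03, against 5.84 and 6.86 under TGFb and 10.81 and 10.92 in untreated cells (4.68 ± 0.43, adjusted p = 0.0292). CLDN7, another claudin, read 9.44, against 4.89 and 5.49 under TGFb and 8.03 and 8.48 in untreated cells (4.24 ± 0.34, adjusted p = 0.0225). The withdrawal array lay between the untreated arrays for OCLN and above both for the 2 claudins.

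PATJ, a scaffold of the Crumbs polarity complex, rose by 3.37 ± 0.25 (10.13 after withdrawal, against 6.58 and 6.95 under TGFb), and its other probe set gave 2.83 (adjusted p = 0.031). MARVELD2, which encodes tricellulin of tricellular contacts, rose by 2.30 ± 0.25, and CGN, which encodes the cytoplasmic plaque protein cingulin, by 2.04 ± 0.22. PARD6B, a polarity adaptor of the PAR complex, read 10.33 against 7.82 and 8.48 and did not pass (2.18 ± 0.36, adjusted p = 0.0962). PRKCZ, which encodes the atypical protein kinase C zeta, read 8.41 against 6.05 and 6.93 (1.91 ± 0.38, adjusted p = 0.133). By size alone 11 of the 24 (45.8%) lay at least 2-fold above both TGFb arrays and none below. Over all named genes 2.05% lay that far above and 2.93% below. All 6 calls were lost without either untreated array (adjusted p from 0.0518 to 0.0873) and without either TGFb array (0.0722 to 0.185).

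Desmosomes tie the keratin filaments of neighbouring cells together through cadherins of their own. Of 22 genes of adherens junctions and desmosomes 5 rose (22.7%) and none fell, beside 0.621% and 0.665% of all named genes. The median difference was 0.87, and 21 of the 22 lay above 0. Beside CDH1 the 5 that rose were the desmosomal cadherins DSG3, DSC2 and DSC3 and the desmosomal plaque gene PPL, which encodes periplakin. DSG3 read 11.15 after withdrawal, against 7.31 and 7.67 under TGFb and 10.53 and 10.52 in untreated cells (3.66 ± 0.22, adjusted p = 0.0143). DSC2 read 11.07, against 8.19 and 8.46 under TGFb and 10.90 and 10.87 in untreated cells (2.75 ± 0.20, adjusted p = 0.0208). For both cadherins withdrawal lay above every other array shown.

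DSC3 rose by 2.20 ± 0.23 and PPL by 2.34 ± 0.28. DSP, which encodes desmoplakin, the link between the plaque and keratin, read 11.04 against 8.90 and 9.21 under TGFb (1.99 ± 0.25, adjusted p = 0.0507). EPCAM, an epithelial adhesion molecule, read 10.45 against 6.46 and 7.73, where the TGFb arrays themselves lay more than 2-fold apart (3.36 ± 0.52, adjusted p = 0.0813). DSG3 alone among the 5 calls held without either untreated array, where the others had adjusted p from 0.0551 to 0.0744, and none held without either TGFb array (0.0722 to 0.222). PPL was also not called under quantile normalization (adjusted p = 0.0514) or with each array centred on its median (0.0503).

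Keratins are the intermediate filaments of epithelia. Of 10 measured keratin genes 2 rose (20%), KRT19 and KRT7, and none fell, beside 0.621% and 0.665% of all named genes. KRT7, a keratin of ducts and simple epithelia, read 8.30 after withdrawal, against 5.49 and 5.19 under TGFb and 8.13 and 8.38 in untreated cells (2.96 ± 0.23, adjusted p = 0.0224). KRT8 and KRT18, which pair in simple epithelia, did not pass. KRT8 read 6.25 against 5.05 and 5.22 (1.12 ± 0.19, adjusted p = 0.0999), and KRT18 read 11.22 against 10.45 and 10.47 (0.76 ± 0.19, adjusted p = 0.186). The KRT7 call was lost without either untreated array (adjusted p = 0.0551).

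Among 20 transcription and splicing regulators of epithelia 2 rose (10%) and none fell, beside 0.621% and 0.665% of all named genes. The list's median was 0.70. GRHL2, a transcription factor that drives junction genes, read 8.70 after withdrawal, against 3.25 and 4.06 under TGFb and 8.73 and 9.0 in untreated cells (5.04 ± 0.37, adjusted p = 0.0208). TFCP2L1, a factor known from kidney collecting ducts, read 6.98, against 4.38 and 4.22 under TGFb and 6.48 and 6.46 in untreated cells (2.68 ± 0.18, adjusted p = 0.0188). GRHL3, a relative of GRHL2, differed by 2.43 ± 0.39 (adjusted p = 0.0885) and EHF, an epithelial ETS factor, by 2.43 ± 0.43 (adjusted p = 0.11). ESRP1, which directs epithelial splice choices, read 8.94 against 7.40 and 7.77 (1.35 ± 0.25, adjusted p = 0.118). By size alone 8 of the 20 (40%) lay at least 2-fold above both TGFb arrays and 1 (5%) below. Over all named genes the shares were 2.05% above and 2.93% below. Both calls were lost without either untreated array (adjusted p = 0.0571 and 0.0509).

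The apical membrane of an epithelial cell is supplied by recycling endosomes and bears microvilli built on actin bundles. Of 24 genes of apical membrane and trafficking 5 rose (20.8%) and none fell, beside 0.621% and 0.665% of all named genes. This list too was drawn up with earlier results known, so the share is no independent support. RAB25, a small GTPase of apical recycling endosomes, read 9.0 after withdrawal, against 4.09 and 3.98 under TGFb and 7.53 and 7.96 in untreated cells (4.97 ± 0.24, adjusted p = 0.0115). PLS1, which bundles actin in microvilli, read 9.74, against 4.26 and 4.12 under TGFb and 10.55 and 8.88 in untreated cells (5.55 ± 0.66, adjusted p = 0.0473). The withdrawal array exceeded both untreated arrays for RAB25 and lay between them for PLS1.

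SH3YL1, a phosphoinositide-binding protein, rose by 5.82 ± 0.60, TMEM45B, a transmembrane protein, by 5.22 ± 0.34 and RASEF, an atypical Rab GTPase, by 4.79 ± 0.22. MAL2, a carrier of apical transcytosis, read 11.17 against 4.53 and 6.27 and did not pass (5.77 ± 0.73, adjusted p = 0.0536). AP1M2, the epithelial subunit of a clathrin adaptor, differed by 2.15 ± 0.28 (adjusted p = 0.0555). The SH3YL1 call was lost without either untreated array (adjusted p = 0.0869), and PLS1 was not called under quantile normalization (0.0562), robust moderation (0.0566) or median centring (0.0501).

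Of 14 epithelial proteases and inhibitors SPINT2, an inhibitor of matriptase and prostasin, alone rose (7.14%, beside 0.621% of all named genes). It read 10.05 after withdrawal, against 7.47 and 7.86 under TGFb and 10.61 and 10.60 in untreated cells (2.39 ± 0.23, adjusted p = 0.0304, and 0.0744 without either untreated array). SPINK5, another serine protease inhibitor, read 9.67, against 4.29 and 6.51 under TGFb and 11.81 and 11.97 in untreated cells (4.27 ± 0.87, adjusted p = 0.137). SERPINB5, which encodes maspin, differed by 2.69 ± 0.53 (adjusted p = 0.13). The withdrawal values of SPINT2 and SPINK5 lay between the TGFb and the untreated values.

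**Figure D3:**
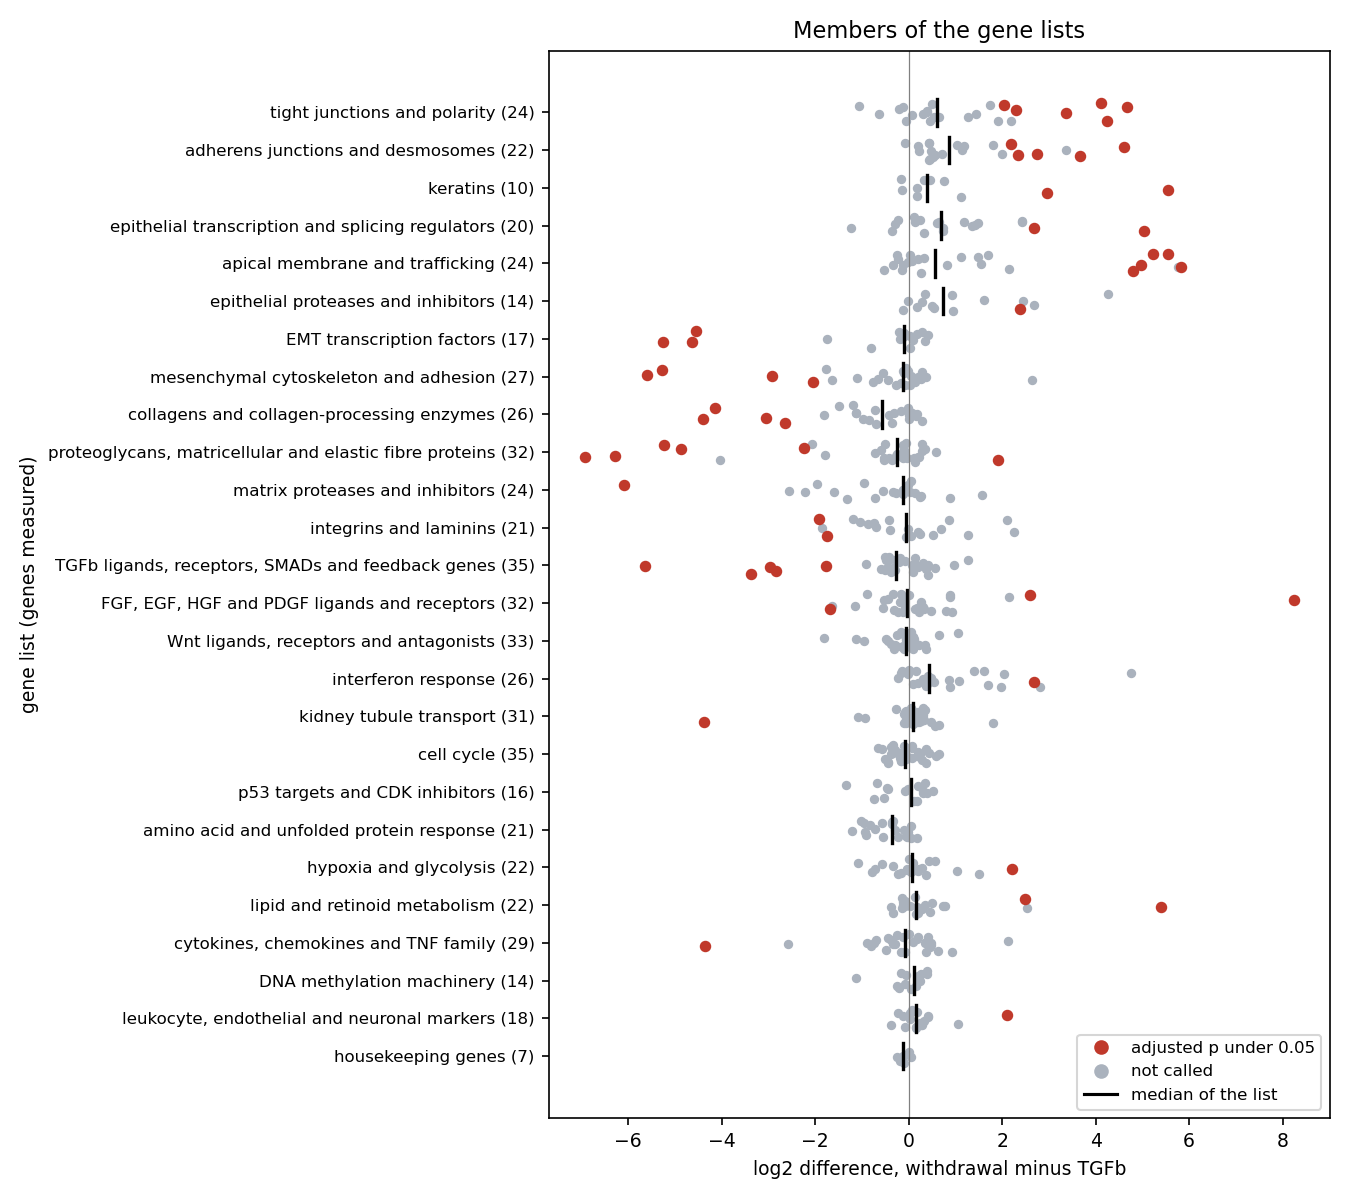
Log2 difference, withdrawal minus TGFb (horizontal axis), of each measured member of 26 gene lists (rows, with the number measured), called genes in red, others in grey, and the list median as a black bar. Called members lie to the right in the 6 epithelial lists at the top and to the left in most matrix, EMT and TGFb lists, where NID2 at 1.91 is the exception, while the medians of the collagen, proteoglycan and matrix protease lists lie between −0.56 and −0.12.

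Transcription factors of EMT repress epithelial genes. Of 17 measured 3 fell (17.6%), none rose and 14 did not pass. Of all named genes 0.665% fell and 0.621% rose, and the list's median was −0.10. ZEB2, a homologue of ZEB1, read 3.92 after withdrawal, against 9.02 and 7.91 under TGFb and 4.97 and 4.30 in untreated cells (−4.54 ± 0.53, adjusted p = 0.0451). TCF4, a basic helix-loop-helix factor that binds E-boxes, read 4.92, against 9.51 and 9.59 under TGFb and 4.84 and 4.34 in untreated cells (−4.63 ± 0.26, adjusted p = 0.0143). With ZEB1 these 3 genes came down to within 0.38 of an untreated array on the log2 scale or lay between the untreated arrays.

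SNAI2, the repressor Slug, read 9.43 after withdrawal, against 11.36 and 11 under TGFb and 9.45 and 8.71 in untreated cells (−1.75 ± 0.36, adjusted p = 0.138). SNAI1, the repressor Snail, read 4.83 against 4.80 and 5.26 (−0.20, 95% interval −0.83 to 0.43). RUNX2, a factor of bone formation, differed by −0.80 ± 0.25 (adjusted p = 0.27). The ZEB2 call was lost without either untreated array (adjusted p = 0.0857), under quantile normalization (0.0527) and under robust moderation (0.0521), and no call of the list held without either TGFb array (0.0833 to 0.164).

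Of 27 genes of the mesenchymal cytoskeleton and adhesion 4 fell (14.8%) and none rose, beside 0.665% and 0.621% of all named genes. CALD1, which encodes the actin- and myosin-binding caldesmon, read 4.48 after withdrawal, against 10.03 and 10.14 under TGFb and 6.99 and 5.64 in untreated cells (−5.60 ± 0.55, adjusted p = 0.0317). NEGR1, a neural adhesion molecule of the IgLON family, read 4.21, against 9.48 and 9.51 under TGFb and 3.56 and 3.59 in untreated cells (−5.28 ± 0.17, adjusted p = 0.00559). CALD1 dropped under both untreated values, while NEGR1 stayed above them by 0.62.

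DDR2, a collagen receptor kinase, fell by 2.93 ± 0.30 and the cadherin gene CDH6 fell by 2.04 ± 0.21, with withdrawal below both untreated arrays in each case. VIM, which encodes the intermediate filament vimentin, read 12.10 after withdrawal, against 12.26 and 12.28 under TGFb (−0.17, 95% interval −0.61 to 0.27). CDH2, which encodes N-cadherin, read 9.0 against 9.94 and 9.61 (−0.77 ± 0.22, adjusted p = 0.244). The smooth muscle genes ACTA2 (−1.77 ± 0.63, adjusted p = 0.325) and TAGLN (−1.64 ± 0.51, adjusted p = 0.27) did not pass, and their TGFb arrays differed by over 1 on the log2 scale. PDGFRA, a receptor of platelet-derived growth factor, read 8.01, against 5.39 and 5.37 under TGFb (2.63 ± 0.38, adjusted p = 0.0696). The CDH6 call was lost without either untreated array (adjusted p = 0.0674).

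Collagens form the fibrils of the matrix, and lysyl oxidases crosslink them. Of 26 collagen and collagen-processing genes 4 fell (15.4%) and none rose, beside 0.665% and 0.621% of all named genes. The median difference was −0.56. COL1A2, the alpha 2 chain of type I collagen, read 5.12 after withdrawal, against 9.31 and 9.21 under TGFb and 5.39 and 5.21 in untreated cells (−4.15 ± 0.19, adjusted p = 0.0103). COL12A1, a collagen attached to fibril surfaces, read 5.80, against 10.20 and 10.20 under TGFb and 8.67 and 9.86 in untreated cells (−4.40 ± 0.49, adjusted p = 0.0416). COL1A2 thus read close to untreated cells, whereas COL12A1 read 2.88 below the lower untreated array.

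COL3A1 fell by 2.64 ± 0.24 (5.61, against 8.46 and 8.04 under TGFb and 5.56 and 5.42 in untreated cells). The crosslinking enzyme LOX fell by 3.06 ± 0.28 (7.76, against 10.97 and 10.67 under TGFb and 8.74 and 8.27 in untreated cells). COL1A1, the partner chain of COL1A2, read 5.53 against 7.46 and 7.25 and did not pass (−1.82 ± 0.35, adjusted p = 0.126), nor did the lysyl hydroxylase PLOD1 (−1.49 ± 0.36, adjusted p = 0.182). By size alone 8 of the 26 (30.8%) lay at least 2-fold below both TGFb arrays and none above. Over all named genes the shares were 2.93% below and 2.05% above. The calls on COL3A1 (adjusted p = 0.0685) and LOX (adjusted p = 0.0521) were lost without either untreated array.

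Among 32 proteoglycan, matricellular and elastic fibre genes 5 fell (15.6%) and 1 rose (3.12%), beside 0.665% and 0.621% of all named genes. SPARC, which encodes a collagen-binding matricellular glycoprotein, read 4.72 after withdrawal, against 10.93 and 11.08 under TGFb and 5.16 and 4.41 in untreated cells (−6.29 ± 0.34, adjusted p = 0.0138). LUM, which encodes lumican, a relative of keratocan, read 7.08, against 11.93 and 11.96 under TGFb and 4.73 and 3.79 in untreated cells (−4.86 ± 0.40, adjusted p = 0.0231). SPARC and KERA came within 0.42 of an untreated array or between both, but LUM remained 2.36 above the higher untreated one.

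GPNMB, a transmembrane glycoprotein, fell by 5.23 ± 0.18 and THBS1, which encodes the latent TGFb activator thrombospondin 1, fell by 2.23 ± 0.25. NID2, which encodes a basement membrane nidogen, rose by 1.91 ± 0.19 (7.72, against 5.75 and 5.86 under TGFb and 5.43 and 5.27 in untreated cells). FN1, which encodes fibronectin, read 10.29 against 12.19 and 11.96 (−1.79 ± 0.38, adjusted p = 0.146). DCN, which encodes decorin, read 3.89 against 7.31 and 8.54 (−4.04 ± 0.51, adjusted p = 0.0533), and CCN2, a connective tissue growth factor, 4.80 against 7.12 and 6.61 (−2.06 ± 0.28, adjusted p = 0.0646). The calls on THBS1 (adjusted p = 0.0653) and NID2 (adjusted p = 0.0668) were lost without either untreated array.

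MMP13, a collagenase, was the single call among 24 matrix proteases and inhibitors (4.17%, while 0.665% of all named genes fell). It read 4.57 after withdrawal, against 11.03 and 10.30 under TGFb and 9.01 and 10.68 in untreated cells (−6.10 ± 0.72, adjusted p = 0.0469), so that withdrawal stood alone below the other 4 arrays. The call was lost under quantile normalization (adjusted p = 0.053) and robust moderation (0.056). The protease nexin SERPINE2 (−2.57 ± 0.42, adjusted p = 0.0911) and the metalloprotease ADAM12 (−2.21 ± 0.38, adjusted p = 0.1) did not pass.

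Of 21 integrin and laminin genes 2 fell (9.52%) and none rose, beside 0.665% and 0.621% of all named genes. ITGB3, a subunit of the vitronectin receptor, fell by 1.75 ± 0.20 and the laminin chain gene LAMA4 by 1.91 ± 0.23, and both calls were lost without either untreated array (adjusted p = 0.087 for ITGB3 and 0.0668 for LAMA4). LAMA4 was also not called under quantile normalization (adjusted p = 0.0555) or robust moderation (0.05). The hemidesmosomal integrin ITGB4 (2.10 ± 0.27, adjusted p = 0.0557) and ITGB6, a subunit of an epithelial integrin that activates latent TGFb (2.25 ± 0.43, adjusted p = 0.122), lay higher without passing. The list thus held genes on both sides, with a median of −0.05.

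**Figure D4:**
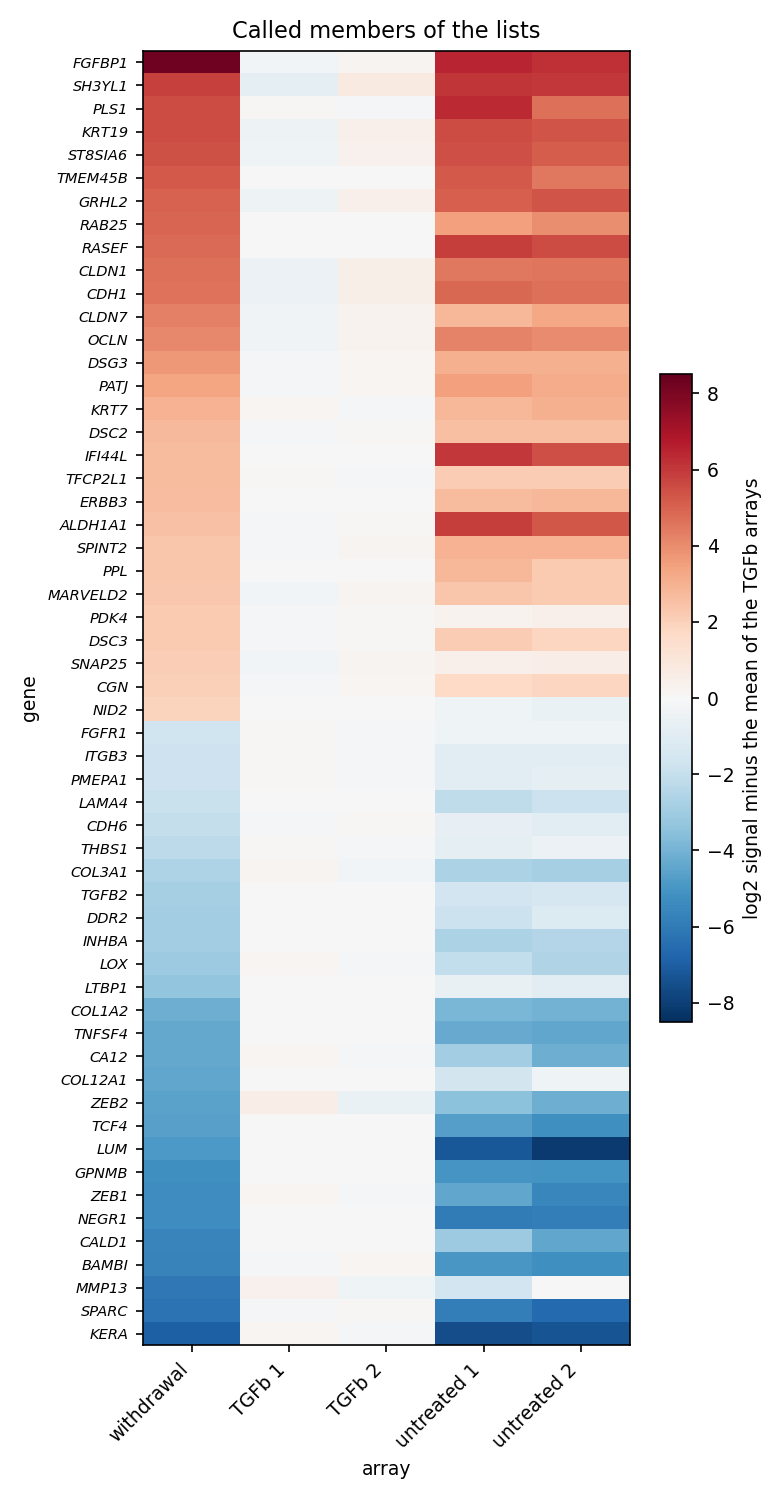
Log2 signal minus the mean of the TGFb arrays (colour) for the 56 called members of the lists (rows, 29 higher and 27 lower) on each array (columns). The withdrawal and untreated columns share a colour in most rows, and NID2, PDK4, SNAP25, FGFR1, COL12A1, LTBP1 and MMP13 are among the rows where the withdrawal column is the more intense.

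Removal of a ligand can also be read in the genes of its own pathway. Of 35 TGFb ligands, receptors, SMADs and feedback genes 5 fell (14.3%) and none rose, beside 0.665% and 0.621% of all named genes. The list's median was −0.27. BAMBI, a decoy receptor induced by TGFb, read 3.51 after withdrawal, against 9.02 and 9.30 under TGFb and 4.21 and 3.96 in untreated cells (−5.65 ± 0.22, adjusted p = 0.0079). LTBP1, which binds latent TGFb in the matrix, read 6.98, against 10.35 and 10.38 under TGFb and 9.72 and 9.41 in untreated cells (−3.38 ± 0.21, adjusted p = 0.0144). TGFB2, which encodes a TGFb ligand, read 7.40, against 10.24 and 10.22 under TGFb and 8.59 and 8.83 in untreated cells (−2.83 ± 0.20, adjusted p = 0.0188). In all 3 the withdrawal array lay below both untreated arrays.

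INHBA, which encodes the activin A subunit, fell by 2.96 ± 0.19 (5.87, against 8.78 and 8.86 under TGFb and 6.13 and 6.34 in untreated cells). PMEPA1, a feedback gene that binds SMADs, fell by 1.76 ± 0.21 (5.26, against 7.14 and 6.90 under TGFb and 6.03 and 6.23 in untreated cells). TGFB1 (−0.08, 95% interval −0.77 to 0.61) and the inhibitory SMAD7 (−0.27, −0.78 to 0.24) did not pass. The receptor genes did not pass either, TGFBR1 at −0.42 ± 0.20 and TGFBR2 at 0.96 ± 0.24, nor did the activin antagonist FST at 1.28 ± 0.55. Over the list the withdrawal array lay below both untreated arrays for 20 of 35 genes, beside 5249 of the 15947 named genes. The PMEPA1 call was lost without either untreated array (adjusted p = 0.0865), and all 5 were lost without either TGFb array (0.0722 to 0.22).

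Of 32 ligands and receptors of the FGF, EGF, HGF and PDGF families 2 rose (6.25%) and 1 fell (3.12%). Of all named genes 0.621% rose and 0.665% fell. ERBB3, a receptor for neuregulins, read 6.93 after withdrawal, against 4.39 and 4.29 under TGFb and 7.06 and 7.16 in untreated cells (2.59 ± 0.18, adjusted p = 0.0189). FGFR1, a receptor of fibroblast growth factors, read 4.89, against 6.70 and 6.45 under TGFb and 6.23 and 6.18 in untreated cells (−1.68 ± 0.20, adjusted p = 0.0469). With FGFBP1 the FGF genes therefore held calls in both directions. AREG, an EGF receptor ligand, read 9.60, against 7.38 and 7.52 under TGFb and 7.95 and 6.39 in untreated cells (2.15 ± 0.62, adjusted p = 0.247). VEGFC, a lymphatic growth factor, read 4.18 after withdrawal, against 4.02 and 7.60 under TGFb, so its difference of −1.63 ± 1.55 depends on the TGFb array taken. The calls on ERBB3 and FGFR1 were lost without either untreated array (adjusted p = 0.0509 and 0.0938).

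None of 33 Wnt ligands, receptors and antagonists was called in limma at an adjusted p under 0.05. At an unadjusted p under 0.05 there were 5, beside 2407 of the 15947 named genes. The non-canonical ligand WNT5A came nearest, with 4.90 after withdrawal, against 6.90 and 6.54 under TGFb and 4.23 and 4.5 in untreated cells (−1.82 ± 0.24, adjusted p = 0.0599).

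Interferon-stimulated genes restrict viruses and sense their RNA. Of 26 measured genes IFI44L, an interferon-induced gene, alone rose (3.85%), with 5.77 after withdrawal, against 3.08 and 3.08 under TGFb and 9.09 and 8.55 in untreated cells (2.68 ± 0.27, adjusted p = 0.0326). Of all named genes 0.621% rose. By size alone 8 of the 26 (30.8%) lay at least 2-fold above both TGFb arrays, beside 2.05% of all named genes. Yet the withdrawal array lay below both untreated arrays for 19 of the 26, beside 5249 of the 15947 named genes. DDX60, a helicase of RNA sensing, read 7.82, against 3.08 and 3.07 under TGFb and 9.27 and 7.35 in untreated cells (4.75 ± 0.76, adjusted p = 0.0872). RSAD2, which encodes viperin, read 6.72, against 3.89 and 3.96 under TGFb and 10.09 and 8.52 in untreated cells (2.80 ± 0.63, adjusted p = 0.158). ISG15, a ubiquitin-like modifier, read 4.14, against 3.68 and 3.51 under TGFb and 6.23 and 5.46 in untreated cells (0.55, 95% interval −0.35 to 1.44). IFI44L, RSAD2 and ISG15 after withdrawal thus lay between the TGFb and the untreated values, and the median over the list was 0.45.

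Lists for other functions held few calls, and of all named genes 0.621% rose and 0.665% fell. CA12, a membrane carbonic anhydrase, fell by 4.37 ± 0.50 and was the single call among 31 kidney tubule transport genes (3.23%), lost under robust moderation (adjusted p = 0.0521). PDK4, which restrains pyruvate dehydrogenase, rose by 2.21 ± 0.18 as the single call among 22 hypoxia and glycolysis genes (4.55%). ALDH1A1, a retinaldehyde dehydrogenase, and ST8SIA6, a sialyltransferase, rose by 2.50 ± 0.29 and 5.40 ± 0.34 among 22 lipid and retinoid genes (9.09%). TNFSF4, which encodes the OX40 ligand, fell by 4.36 ± 0.18 as the single call among 29 cytokine and TNF family genes (3.45%). The calls on PDK4 and ALDH1A1 were lost without either untreated array (adjusted p = 0.0588 and 0.0551).

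No member was called among 35 cell cycle genes, whose differences ran from −0.65 for CCND1, which encodes cyclin D1, to 0.66 for TYMS, which encodes thymidylate synthase. MKI67, the proliferation marker, read 10.40 after withdrawal, against 10.24 and 10.07 under TGFb (0.25, 95% interval −0.23 to 0.72). Nor was any called among 16 p53 targets and CDK inhibitors, 21 amino acid and unfolded protein response genes, 14 DNA methylation genes or 7 housekeeping genes in limma. At an unadjusted p under 0.05 there were 4 cell cycle genes, 3 p53 targets, 7 amino acid and unfolded protein genes, 1 DNA methylation gene and 0 housekeeping genes. In the same limma fit 2407 of the 15947 named genes had an unadjusted p under 0.05. DNMT1, the maintenance DNA methyltransferase, read 10.02 against 9.63 and 9.63 (0.39, 95% interval −0.08 to 0.86). Unfolded protein and amino acid genes had the lowest median of these (−0.35), with HERPUD1, a gene of endoplasmic reticulum protein disposal, at −1.22 ± 0.31 (adjusted p = 0.205). For these lists a missed threshold does not show equal levels, since the withdrawal group has a single array.

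The 6 measured leukocyte markers had a median of 3.54 after withdrawal, against 3.08 and 3.41 under TGFb and 3.42 and 3.22 in untreated cells, and their summed log2 signals were 22.16 after withdrawal, against 21.49 and 22.39 under TGFb and 22.60 and 21.93 in untreated cells. The pan-leukocyte gene PTPRC read 2.83 after withdrawal, against 2.84 and 2.97 under TGFb. The 7 endothelial markers summed to 29.35 after withdrawal, against 28.11 and 27.90 under TGFb and 29.37 and 27.69 in untreated cells. The 5 measured neuronal and glial markers summed to 27.85 after withdrawal, against 24.58 and 24.34 under TGFb and 26.16 and 25.86 in untreated cells, so this sum was highest after withdrawal, and its part in the results was not tested. Among 18 markers of leukocytes, endothelium and neurons only SNAP25, a vesicle fusion gene of neurons, rose (6.28, against 3.93 and 4.41 under TGFb, 2.11 ± 0.26, adjusted p = 0.0484), and its call was lost without either untreated array (0.101), under quantile normalization (0.0526), median centring (0.0524) and robust moderation (0.05). The tubule genes AQP2, UMOD and SLC12A1, singled out after their values were seen as a check of the kidney label, read between 2.86 and 4.73 on the withdrawal, TGFb and untreated arrays. No background level is given, so that these values cannot be called absent.

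Several of the largest changes lay outside every list. LIPH, a membrane phosphatidic acid lipase, read 7.93 after withdrawal, against 2.52 and 3.03 under TGFb and 6.97 and 6.64 in untreated cells (5.15 ± 0.29, adjusted p = 0.0143). RASSF6, a Ras association domain protein, read 8.09, against 2.88 and 3.14 under TGFb and 9.41 and 8.77 in untreated cells (5.08 ± 0.31, adjusted p = 0.0144). MACC1, a transcriptional activator of the HGF receptor gene MET, read 9.53, against 4.36 and 4.61 under TGFb and 8.88 and 8.40 in untreated cells (5.04 ± 0.27, adjusted p = 0.0138). TSPAN8, a tetraspanin, rose by 4.49 ± 0.54, a call lost without either untreated array (adjusted p = 0.0996), under quantile normalization (0.0555), robust moderation (0.057) and median centring (0.0507).

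NOX4, an NADPH oxidase known as a TGFb target in fibroblasts, read 3.01 after withdrawal, against 8.0 and 8.16 under TGFb and 4.70 and 5.60 in untreated cells (−5.07 ± 0.39, adjusted p = 0.0224). BTK, a kinase best known from B cells, read 3.48, against 7.95 and 8.29 under TGFb and 3.73 and 4.18 in untreated cells (−4.64 ± 0.28, adjusted p = 0.0143). DEPDC7, a DEP domain protein, fell by 4.43 ± 0.28. NOX4 dropped 1.69 below the lower untreated array and DEPDC7 1.64 below it, while BTK dropped 0.25 below it.

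The untreated arrays show where the called genes lay beside never-treated cells. Both untreated arrays lay above both TGFb arrays for 98 of the 99 genes that rose. They lay below both for 101 of the 106 that fell. Of the 99 genes that rose, 87 came within 1 on the log2 scale of an untreated array or lay between the pair, 9 lay at least 1 above both and 3 at least 1 below both. Of the 106 that fell, 74 came within that distance, 31 lay at least 1 below both untreated arrays and 1 at least 1 above both. Over all named genes 41 (0.257%) lay that far above and 189 (1.19%) that far below. The called genes were chosen in part by their withdrawal value, which favours positions beyond the untreated arrays, so these counts are given without a test.

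LUM was the gene that fell and yet stayed at least 1 above both untreated arrays. NID2 and PDK4 rose to values above both the TGFb and the untreated arrays, with PDK4 at 5.36 after withdrawal, against 3.08 and 3.23 under TGFb and 3.48 and 3.55 in untreated cells. CD86, a costimulatory ligand, read 8.48, against 5.92 and 5.39 under TGFb and 6.38 and 6.93 in untreated cells (2.82 ± 0.34), and CHST4, a sulfotransferase, 6.81, against 4.19 and 4.58 under TGFb and 5.14 and 5.13 in untreated cells (2.43 ± 0.23). Both calls were lost without either untreated array (adjusted p = 0.0748 and 0.0739), and that on CD86 also under quantile normalization (0.0526), robust moderation (0.0521) and median centring (0.0503).

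On the low side ADGRL2, an adhesion G protein-coupled receptor, read 3.96 after withdrawal, against 6.64 and 7.16 under TGFb and 7.90 and 8.48 in untreated cells. CTSO, a cysteine protease, read 2.98, against 6.25 and 6.16 under TGFb and 6.41 and 5.90 in untreated cells (−3.22 ± 0.26, adjusted p = 0.0231). For both, as for MMP13 and COL12A1, withdrawal was the lowest of all arrays shown. ALDH1A1 stood apart among the genes that rose, with 6.54 after withdrawal, against 3.96 and 4.12 under TGFb and 9.91 and 9.34 in untreated cells, between the pairs. The ADGRL2 call was lost without either untreated array and under quantile normalization (adjusted p = 0.0515).

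**Figure D5:**
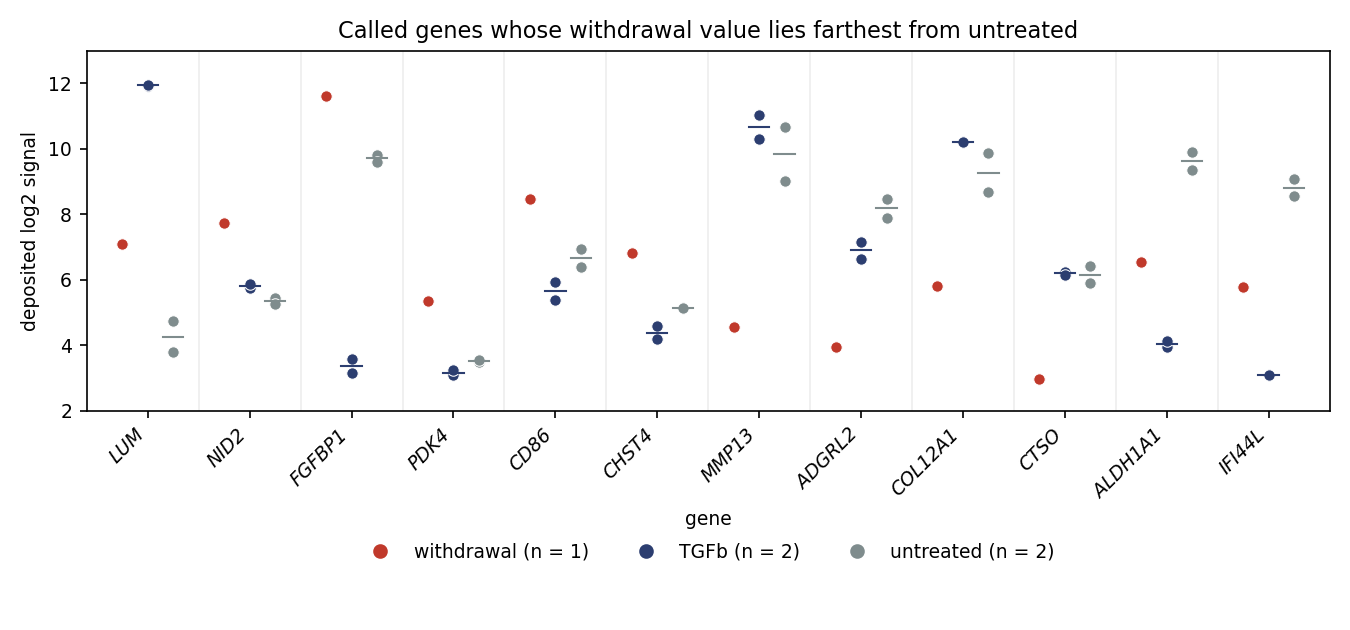
Deposited log2 signal (vertical axis) of the 6 called genes whose withdrawal value lies farthest above and the 6 farthest below the untreated mean (horizontal axis), on the withdrawal array (red, n = 1), the TGFb arrays (blue, n = 2) and the untreated arrays (grey, n = 2), with a bar at each pair's mean. LUM, ALDH1A1 and IFI44L lie between the pairs, and the other 9 lie outside both.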

How the data were processed

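Total RNA was hybridised to 1-colour Affymetrix arrays. The authors deposited one log2 value per probe set and array, made with Affymetrix Expression Console 1.2 per the submitters' processing notes. Neither the summary method nor the log base is given in the sources used, and the range of 0.937 to 13.1 was read as log2. The 32293 probe sets were fitted by group (untreated, TGFb, 5-AZA, withdrawal) with limma 3.58.1 in R 4.3.3 (lmFit, eBayes, no trend, not robust), with 2 residual and 3.1 prior degrees of freedom. Benjamini-Hochberg adjusted p under 0.05 over all probe sets was called, with no signal filter. The procedure was also run on simulated data. There the withdrawal array was made to vary like the others, so the run could not check that assumption. Genes were named from 16545 probe sets with 1 platform symbol (15820 with an identifier in RefSeq, UU_Cfam_GSD_1.0), taking the brightest of each gene. Near-identical family members cannot be separated. Of 655 list symbols, 53 matched no probe set with a single symbol.

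Genes named are the 5 markers, a fixed set of reference genes, the 15 largest called changes each way, up to 6 called and 2 uncalled members per list, and the 6 called genes farthest above and below untreated. Members and lists were chosen with earlier results of these data known. Promoter motifs were not analysed here. The number of arrays limits the precision.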

Additional observations from a re-analysis of the deposited data

How the results depend on the processing

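Settings with fewer features adjust over fewer tests and also estimate the spread anew from those features. With the dimmer probe sets left out, the 119 higher and 152 lower probe sets became 258 and 391. They became 385 and 522 with only named genes tested, and 375 and 514 with the probe sets of a gene averaged. With only the withdrawal and TGFb arrays fitted they were 43 and 54. Leaving out 1 array gave 0 to 43 higher and 0 to 54 lower, the zeros without a TGFb array, where 1 residual degree of freedom was left and each lone array was assumed to vary like the remaining pair. Quantile normalization, median centring, the intensity trend and robust moderation kept both counts within 1.5 times. A lone array adds nothing to the spread, so leaving out the 5-AZA array repeated the main fit. For the same reason leaving out either untreated array repeated the fit of only the withdrawal and TGFb arrays. The settings are therefore not all separate checks. Of the 205 called genes 54 were called in all 11 settings other than those without a TGFb array. Beyond both TGFb arrays by 2-fold lay 511 higher and 787 lower probe sets, 799 to 934 and 1247 to 1350 against a single TGFb array, 232 and 367 at a log2 distance of 1.5, and 145 and 196 at a distance of 2. No called gene changed direction in any setting. This was fixed in advance except where a setting changed the values themselves, since all called genes lay beyond both TGFb arrays. No paired analysis was possible because the withdrawal group has a single array and the labels give no pairing between groups.

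Of 11 called genes with another probe set, 9 had it in the same direction. Only for CHN1, ELMO1 and PATJ was the other probe set called too. Some of the rest were much smaller, such as P3H2 (−3.64, other probe set −0.88) and FHOD3 (−3.22, other probe set −1.29). PALLD (−3.84, other probe set 0.33) and ADGRV1 (1.75, other probe set −0.13) had it in the other direction.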

Other observations

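Further called genes outside the lists are described here, picked after their values were seen. UGT8, which makes galactosylceramide, read 9.79 after withdrawal, against 6.27 and 5.56 under TGFb and 10.47 and 9.85 in untreated cells (3.87 ± 0.40, adjusted p = 0.0354). B4GALT6, a lactosylceramide synthase, rose by 3.87 ± 0.19 and SPTSSB, a small subunit of serine palmitoyltransferase, by 3.72 ± 0.26. ST8SIA1, which makes ganglioside GD3, read 3.12 after withdrawal, against 5.80 and 6.13 under TGFb and 3.55 and 3.30 in untreated cells (−2.84 ± 0.24, adjusted p = 0.0237). The calls on UGT8 and ST8SIA1 were lost without either untreated array, and those on B4GALT6 and SPTSSB held.

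BLNK, an adaptor of B cell receptor signalling, read 7.5 after withdrawal, against 3.46 and 3.55 under TGFb and 7.46 and 7.85 in untreated cells (3.99 ± 0.23, adjusted p = 0.0143). It thus moved opposite to BTK, a kinase that binds BLNK in B cells. CD74, the MHC class II invariant chain, read 7.73, against 4.68 and 5.13 under TGFb and 8.56 and 8.34 in untreated cells (2.82 ± 0.26, adjusted p = 0.0292, and lost without either untreated array). PTHLH, which encodes parathyroid hormone-related protein, read 3.39, against 6.90 and 6.67 under TGFb and 3.59 and 4.10 in untreated cells (−3.39 ± 0.27, adjusted p = 0.0225). JAG1, a Notch ligand, read 6.55, against 9.76 and 9.23 under TGFb and 7.81 and 7.61 in untreated cells (−2.94 ± 0.28, adjusted p = 0.0292, and lost without either untreated array). The part of other cell types in these values was not tested, and the leukocyte gene PTPRC read 2.83 after withdrawal, against 2.84 and 2.97 under TGFb.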
